A study of Rattus norvegicus with 6 samples.

Results

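The transforming growth factor beta (TGF-beta) family comprises the TGF-betas, activins and inhibins, bone morphogenetic proteins (BMPs) and growth differentiation factors (GDFs), with their receptors, Smad proteins and extracellular inhibitors. The genes examined here were those on a rat array whose symbol begins with Tgfb, Bmp, Gdf, Acvr, Inha, Inhb or Smad, together with Nog, Fst, Fstl1, Fstl3 and Grem1. They were 48 genes with 1 probe each, out of 13903 genes named on the array and 24684 probes in all, 15343 of them classed as protein-coding. Inhbb, Bmp7, Bmpr2, Gdf11 and Chrd were not analysed here.

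The tissue was pancreatic islets, the endocrine cell clusters of the pancreas, released from the gland with collagenase. Adult islets came from male rats, 1 rat on each of 3 arrays, and islets at postnatal day 10 (P10) came from pools of pups, 1 pool on each of 3 arrays. The labels used here state no adult age, strain, sex of the pups or number of pups in a pool. No treatment or genetic change is named for either stage.

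Ligands of this family are secreted dimers that bind a pair of type II and a pair of type I receptor kinases at the cell surface. The type I kinase then phosphorylates receptor-regulated Smads, Smad2 and Smad3 for TGF-beta and activin and Smad1, Smad5 and Smad9 for BMP, which enter the nucleus with Smad4 and change transcription. Inhibitory Smads and secreted antagonists such as noggin, gremlin and follistatin limit the signal, and in islets activin and BMP signalling are known to act on endocrine differentiation, beta cell growth and insulin secretion.

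A level below is the log2 Cy3 signal of a gene's probe minus the 75th percentile of its array, and a change is the adult level minus the P10 level. A level of 0 is the array's 75th percentile, and levels of different genes are not compared, since probes differ in brightness. The arrays had 17829 to 18731 probes well above background each, with 0 saturated spots. Differences between adult arrays 2 and 3, and between P10 arrays 1 and 2, hardly recurred at a second probe of the same gene. Each of these pairs was averaged and counted as 1 sample, which leaves n = 2 per stage, though single probes such as that of Inhbc differed within a pair. Adult array 1 stood apart from the other adult arrays and shared its scan with the P10 arrays, while adult arrays 2 and 3 were in another scan. The 75th percentile that was subtracted lay 1.20 higher (log2) in adults, and the median change over all tested protein-coding probes was -0.13, against 0.03 after quantile normalization. The spread between adult samples is therefore the gap of array 1 to arrays 2 and 3, in which a difference between rats and one between scans cannot be told apart. As a check of the labelled tissue, 10 endocrine markers, among them Ins1, Ins2, Gcg and Sst, were well above background on all 6 arrays.

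Of the 48 family genes, 40 could be tested and 21 passed the threshold (52.5%), against 52.3% of the 12541 protein-coding probes tested. Among these family genes 7 were higher in adults (17.5%, against 23.6% of protein-coding probes) and 14 were lower (35.0%, against 28.8%). The genes higher in adults were Grem1, Nog, Tgfbr1, Bmp6, Tgfb2, Tgfb3 and Gdf10. Those lower in adults were Acvr1, Inhbc, Gdf2, Bmp2, Acvr2b, Gdf15, Bmp8a, Fstl3, Gdf6, Bmp3, Fst, Fstl1, Smad6 and Tgfbrap1. A call with a change of at least 2-fold was seen for 5 of the 40 family genes in the higher direction (12.5%, against 15.9% of protein-coding probes) and for 10 in the lower direction (25.0%, against 20.7%). The median change of the 40 tested family genes was -0.25, beside the -0.13 of all protein-coding probes. After quantile normalization 10 of the 40 were higher and 12 lower, against 57.1% of protein-coding probes past the threshold (29.9% higher and 27.2% lower). The share of family genes past the threshold was thus near that of the array as a whole. In bulk tissue such as this, fewer cells of a type and less RNA per cell cannot be told apart.

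By role, calls occurred among ligands, receptors, secreted antagonists, the inhibitory Smads (Smad6) and Fstl1 and Tgfbrap1. None of the 5 tested signal-transducing Smads (Smad1, Smad2, Smad4, Smad5 and Smad9) passed the threshold in limma, and their unadjusted p-values were 0.304 to 0.832. The 3 TGF-beta genes gave 2 higher and 1 that did not pass, and the 7 tested BMP ligands gave 1 higher, 3 lower and 3 that did not pass. The 5 tested GDF genes gave 1 higher, 3 lower and 1 that did not pass. Of 6 tested type I receptors 1 was higher and 1 lower, and of 3 type II receptors 1 was lower. Of 5 secreted antagonists 2 were higher and 2 lower. The counts by role include Nog, Acvr1, Bmp2, Bmp8a and Inhbc. These genes were dim in 1 stage and entered the test through the other stage alone, an entry that favours a difference. The counts are of few genes per role, with no test of one role against another.

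**Figure D1:**
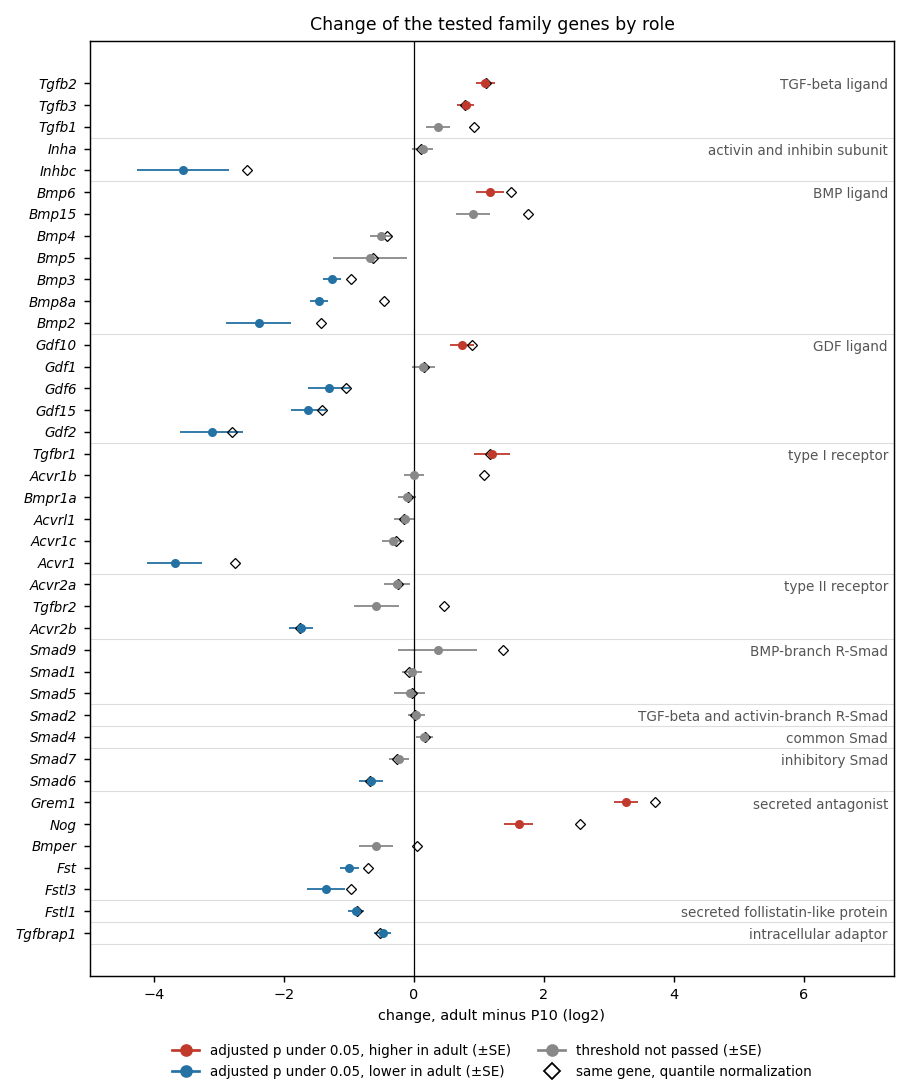
Change of each of the 40 tested family genes (adult minus P10, log2, horizontal axis), grouped by role, with the standard error of the limma fit; diamonds give the same gene after quantile normalization. Coloured points passed an adjusted p of 0.05 (7 higher in adults, 14 lower), and Smad1, Smad2, Smad4 and Smad5 lie near 0, while Smad9 has an error of 0.61 and a quantile value of 1.38.

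The values on single arrays were separated between stages for 25 of the 40 tested genes, with adult arrays all above the P10 arrays in 9 and all below in 16. This is 62.5%, against 78.2% of protein-coding probes (35.2% above and 43.0% below). Of the 21 genes past the threshold 20 were separated, the exception being Gdf6. Calls and separation come from the same 6 arrays, and a call favours separation, so this count lends the calls no support. The 31 family genes well above background on all 6 arrays include 16 of the 21 calls, 6 higher and 10 lower. The other 5 calls, Nog, Acvr1, Bmp2, Bmp8a and Inhbc, were dim in 1 stage. They entered the test through the other stage alone, an entry that favours a difference, so they lend no support to the count.

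**Figure D2:**
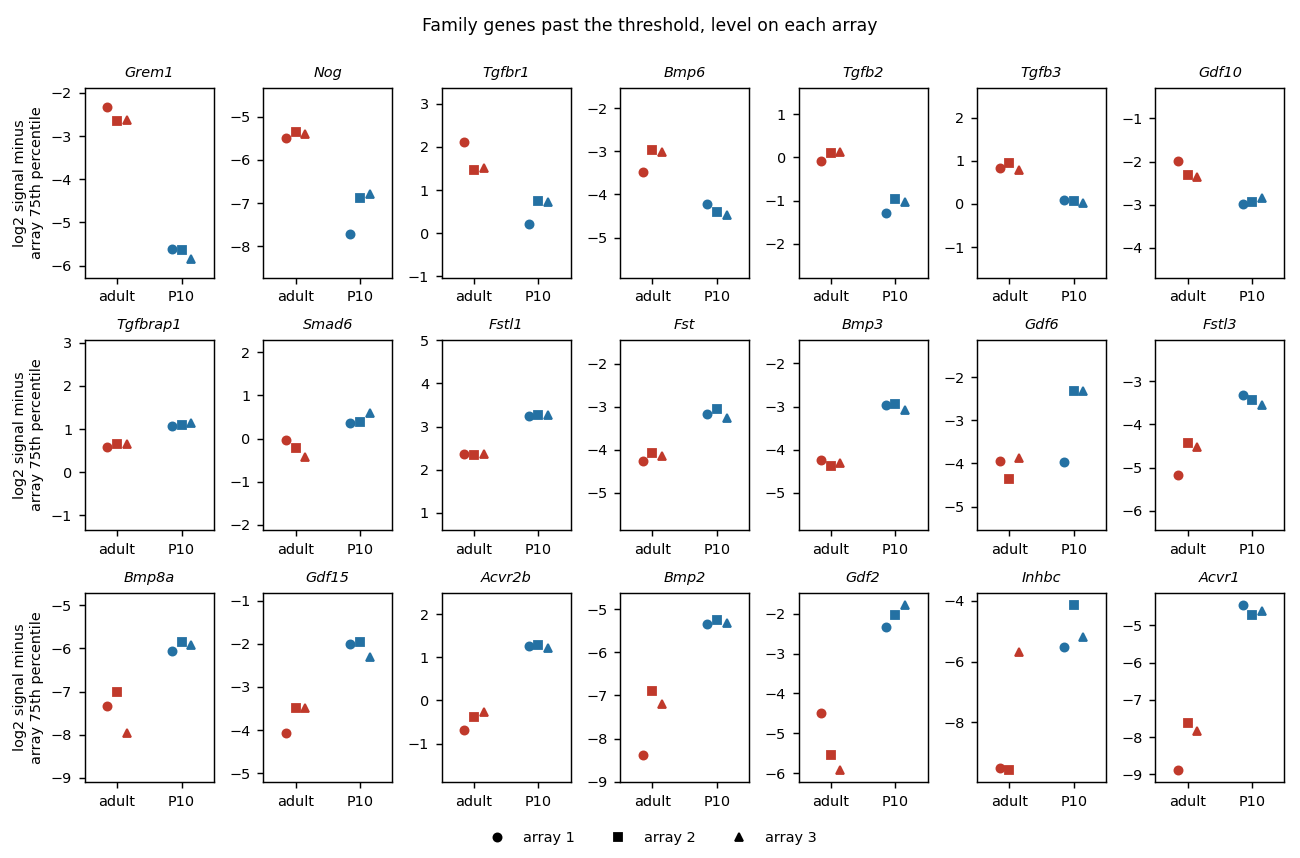
Level of each of the 21 family genes past the threshold on each array (log2 signal minus the array's 75th percentile), adult arrays left and P10 arrays right, with array numbers as symbols. The vertical range of levels differs between panels. In all panels except that of Gdf6 the 3 adult arrays lie wholly above or below the 3 P10 arrays, and Inhbc has 1 adult array close to the P10 range.

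For 4 of these genes, the highest and the lowest pair of changes among calls well above background on all arrays, the 250 bases before the start used in a RefSeq promoter table (assembly GRCr8, in the direction of transcription) are shown. A longer transcript can begin further upstream, and the last 50 bases for Tgfbr1 and the last 174 for Acvr2b lie inside the annotated span of the gene. Capitals mark a CAGAC Smad-binding motif (read on either strand, so also GTCTG) or a GGCGCC motif, the GC-rich form bound by Smads of the BMP branch. Grem1 lies on the minus strand, with its window at chr3:120978320-120978569. Tgfbr1 (plus strand) has its window at chr5:66449148-66449397, Gdf2 (plus strand) at chr16:9261429-9261678 and Acvr2b (plus strand) at chr8:128016513-128016762.
Grem1: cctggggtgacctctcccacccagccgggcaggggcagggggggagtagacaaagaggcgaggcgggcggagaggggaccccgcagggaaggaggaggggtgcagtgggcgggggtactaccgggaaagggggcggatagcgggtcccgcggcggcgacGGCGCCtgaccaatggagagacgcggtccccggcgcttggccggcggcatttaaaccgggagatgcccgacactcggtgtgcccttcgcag
Tgfbr1: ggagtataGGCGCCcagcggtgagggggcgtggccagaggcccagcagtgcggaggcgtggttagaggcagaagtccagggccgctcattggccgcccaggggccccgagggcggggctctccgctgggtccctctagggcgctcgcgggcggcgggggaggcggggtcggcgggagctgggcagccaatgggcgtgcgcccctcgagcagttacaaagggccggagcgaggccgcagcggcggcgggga
Gdf2: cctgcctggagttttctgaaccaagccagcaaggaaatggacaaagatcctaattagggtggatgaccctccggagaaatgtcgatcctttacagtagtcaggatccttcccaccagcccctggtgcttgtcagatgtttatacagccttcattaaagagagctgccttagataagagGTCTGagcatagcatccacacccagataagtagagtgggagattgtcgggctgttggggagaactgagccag
Acvr2b: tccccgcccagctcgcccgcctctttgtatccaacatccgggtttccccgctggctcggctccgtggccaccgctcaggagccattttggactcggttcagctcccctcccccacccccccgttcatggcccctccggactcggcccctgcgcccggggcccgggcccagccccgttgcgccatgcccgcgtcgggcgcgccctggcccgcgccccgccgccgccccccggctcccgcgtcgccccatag
In Grem1 the GGCGCC lies 91 bases before the start, in Tgfbr1 it lies 242 bases before, and in Gdf2 a CAGAC in reverse lies 72 bases before. The Acvr2b window holds neither. A RefSeq promoter was matched for 40 of the 48 family genes, and 18 of these windows lie partly or wholly inside the gene's annotated span. The CAGAC motif occurs in 13 of these 40 (32.5%), against 42.6% of 21851 promoters of protein-coding genes. The GGCGCC motif occurs in 10 of 40 (25.0%), against 11.1%, and the palindrome GTCTAGAC, searched as a strict Smad motif, in 0 of 40, against 0.146%. The windows of the family genes were also richer in G and C, with a median of 63.2% against 54.0%. Among called genes with a promoter, GGCGCC was in 4 of 7 that were higher in adults (median GC 72.0%) and in 0 of 9 that were lower (median GC 64.8%). These matches describe letters in a window, were compared after the calls were known, and show no binding.

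Among the TGF-beta ligands, which signal through Tgfbr2 and Tgfbr1, Tgfb2 and Tgfb3 were higher in adult islets. Tgfb2 had levels of -0.08, 0.11 and 0.12 on the adult arrays, against -1.29, -0.96 and -1.04 on the P10 arrays. The lowest adult array was 0.88 above the highest P10 array. The change was 1.1 (SE 0.15), 2.14-fold higher, with a limma adjusted p of 0.00824. Tgfb3 had levels of 0.83, 0.96 and 0.79 in adults, against 0.10, 0.07 and 0.02 at P10, again without overlap. Its change was 0.80 (SE 0.13), 1.74-fold higher, with a limma adjusted p of 0.0127. Tgfb1, the most studied of the 3 ligands, had levels of -4.96, -4.55 and -4.68 in adults, against -5.12, -5.10 and -5.20 at P10. Its groups did not overlap, but the change of 0.37 (SE 0.18) did not pass the threshold (limma adjusted p = 0.157). After quantile normalization the Tgfb1 change was 0.92, with an adjusted p of 0.00513, so the call for this gene depends on the scaling.

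Activins are dimers of inhibin beta subunits, and inhibins pair a beta subunit with the alpha subunit encoded by Inha. Inha had levels of 0.30, 0.49 and 0.54 in adults, against 0.32, 0.08 and 0.35 at P10. The stages overlapped, and the change of 0.13 (SE 0.16) did not pass (limma adjusted p = 0.508). Inhba, which encodes the subunit of activin A, was well above background on 0 of 3 adult arrays and 2 of 3 P10 arrays, and so was not tested. Its levels were -9.82, -9.42 and -9.05 in adults, against -6.20, -6.02 and -5.62 at P10. All adult arrays read lower, but no fold is given, since 1 P10 array did not measure it either. Inhbc, a beta subunit gene best known from liver, had levels of -9.52, -9.57 and -5.67 in adults, against -5.52, -4.15 and -5.18 at P10. Adult array 3 alone was above background and lay 0.15 below the nearest P10 array, whereas the other adult arrays lay about 4 lower. The Inhbc change was -3.56 (SE 0.70), with a limma adjusted p of 0.0201, and -2.58 after quantile normalization. No fold is given, since 2 of the 3 adult arrays did not measure it, and its adjusted p without adult array 2 was 0.182. Inhbe, another subunit gene known from liver, was well above background on 2 adult arrays and 1 P10 array and was not tested.

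Of the BMP ligands, Bmp6 was higher in adult islets and Bmp3 was lower. Bmp2 and Bmp8a were also called lower, but they entered the test through the P10 stage alone. Bmp6, known as the BMP that raises hepcidin in iron regulation, had levels of -3.47, -2.98 and -3.02 in adults, against -4.23, -4.42 and -4.48 at P10. The lowest adult array was 0.76 above the highest P10 array. The change was 1.17 (SE 0.22), 2.25-fold higher, with a limma adjusted p of 0.0177. Bmp2, a ligand close in sequence to Bmp4, had levels of -8.38, -6.90 and -7.19 in adults, against -5.36, -5.25 and -5.32 at P10. It was above background on 1 adult array and all P10 arrays, and the stages were separated by 1.54. The change was -2.40 (SE 0.49), with a limma adjusted p of 0.0224, and -1.44 (adjusted p = 0.0109) after quantile normalization. With normexp background correction it was -1.06 (adjusted p = 0.132). No fold is given for Bmp2, since only 1 adult array measured it.

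Bmp3, an atypical member that counters other BMPs, had levels of -4.23, -4.37 and -4.30 in adults, against -2.96, -2.95 and -3.07 at P10. The arrays of each stage lay within 0.2 of one another and the stages were 1.16 apart. The change was -1.27 (SE 0.14), 2.41-fold lower, with a limma adjusted p of 0.0051. Bmp8a, known from germ cells and brown fat, had levels of -7.34, -7.02 and -7.95 in adults, against -6.07, -5.86 and -5.92 at P10. It was above background on 2 adult arrays and all P10 arrays. The change was -1.47 (SE 0.14), with a limma adjusted p of 0.0038, but -0.47 with an adjusted p of 0.174 after quantile normalization. With normexp background correction it was -0.88 (limma adjusted p = 0.142). No fold is given for Bmp8a, since not all adult arrays measured it.

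Bmp4, a ligand reported to act on beta cells, had levels of -2.47, -2.14 and -2.19 in adults, against -1.86, -1.74 and -1.81 at P10. The adult arrays were all lower, but the change of -0.51 (SE 0.17) did not pass (limma adjusted p = 0.0674). It did pass with the 6 arrays taken as separate replicates (where 70.6% of protein-coding probes passed), with the authors' values, with scan as a block or scan 1 alone, with the replicate block and without adult array 1. Bmp5 showed a split within the adult stage, with levels of -1.34, -2.87 and -2.89 in adults, against -1.60, -1.44 and -1.34 at P10. Adult array 1 lay at the P10 level and adult arrays 2 and 3 lay about 1.3 under the lowest P10 array. The change was -0.68 (SE 0.57), with a limma adjusted p of 0.363. Bmp15, known from oocytes, gave a change of 0.91 (SE 0.26, limma adjusted p = 0.0502), and 1.76 (adjusted p = 0.00137) after quantile normalization. Bmp10, a ligand known from heart, was above background on 0 of 6 arrays.

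Among the GDF genes, Gdf2 showed the largest fall of those well above background on all arrays. Gdf2 encodes the ligand also named BMP9, a circulating factor made in liver that acts on endothelial cells through Acvrl1. Its levels were -4.50, -5.55 and -5.91 in adults, against -2.35, -2.04 and -1.79 at P10. The highest adult array was 2.15 below the lowest P10 array. The change was -3.12 (SE 0.48), 8.69-fold lower, with a limma adjusted p of 0.0112. Gdf15, a stress-induced cytokine that signals through a receptor of the brainstem, had levels of -4.06, -3.50 and -3.48 in adults, against -2.0, -1.97 and -2.31 at P10. Its stages were 1.17 apart, and the change was -1.63 (SE 0.27), 3.09-fold lower, with a limma adjusted p of 0.0129.

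Gdf6, a joint and skeletal patterning factor, had levels of -3.95, -4.37 and -3.88 in adults, against -3.96, -2.33 and -2.32 at P10. P10 array 1 lay among the adult arrays, so the stages overlapped. The change was -1.31 (SE 0.33, 2.47-fold lower, limma adjusted p = 0.0362), and Gdf6 passed in only 6 of 16 alternative settings. Gdf10 went the other way, with levels of -1.99, -2.32 and -2.37 in adults, against -2.99, -2.95 and -2.85 at P10. Its change was 0.74 (SE 0.18), 1.68-fold higher, with a limma adjusted p of 0.0355. Gdf1, an embryonic partner of nodal, gave a change of 0.14 (limma adjusted p = 0.526). Gdf3, known from pluripotent cells, was above background on 0 adult arrays and 2 P10 arrays and was not tested. Gdf9, known from oocytes, was above background on 0 of 6 arrays.

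At the receptor level, Tgfbr1 was higher in adult islets, while Acvr2b was lower. Acvr1 was also called lower, but it entered the test through the P10 stage alone. Tgfbr1 encodes the type I kinase of TGF-beta. It had levels of 2.12, 1.46 and 1.52 in adults, against 0.23, 0.74 and 0.71 at P10. The stages were 0.72 apart, with adult array 1 the highest and P10 array 1 the lowest. The change was 1.20 (SE 0.27), 2.30-fold higher, with a limma adjusted p of 0.028. Tgfbr2, the type II kinase that binds TGF-beta first, had levels of -7.27, -6.76 and -6.85 in adults, against -6.15, -6.00 and -6.84 at P10. These overlapped, and the change of -0.58 (SE 0.34) did not pass (limma adjusted p = 0.224) and was 0.47 after quantile normalization. Tgfbr3, the co-receptor betaglycan, was above background on 2 adult arrays and 0 P10 arrays and was not tested.

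Acvr1 encodes a type I receptor of BMPs. Its levels were -8.87, -7.61 and -7.84 in adults, against -4.46, -4.74 and -4.62 at P10. It was above background on 0 adult arrays and all 3 P10 arrays, with 2.87 between the stages. The change was -3.69 (SE 0.43, limma adjusted p = 0.00594), a signal at least 9.73-fold lower in adults on this scale. It was -2.76 after quantile normalization (adjusted p = 0.00131) and -1.42 with normexp (adjusted p = 0.0883), so the size depends on the processing. Acvr2b, a type II receptor of activins, had levels of -0.68, -0.39 and -0.27 in adults, against 1.26, 1.28 and 1.21 at P10. The stages were 1.48 apart and well above background on all arrays. The change was -1.74 (SE 0.18), 3.35-fold lower, with a limma adjusted p of 0.0046. The related type II receptor gene Acvr2a had levels of -1.16, -0.74 and -0.76 in adults, against -0.76, -0.67 and -0.66 at P10. These stages overlapped, and the change of -0.26 (SE 0.20) did not pass (limma adjusted p = 0.311).

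The other type I receptors gave small changes or could not be measured in both stages. Acvr1c, which binds activin B and nodal and is known from beta cells, had levels of -1.77, -1.52 and -1.43 in adults, against -1.45, -1.22 and -1.27 at P10. Its change was -0.32 (SE 0.17), with a limma adjusted p of 0.177. Bmpr1a, the BMP receptor reported in beta cells, had levels of -1.19, -1.17 and -0.90 in adults, against -0.88, -1.08 and -1.02 at P10, and a change of -0.11 (SE 0.14, limma adjusted p = 0.53). Acvrl1, the endothelial receptor of Gdf2, gave a change of -0.14 (limma adjusted p = 0.495). Acvr1b, the main activin type I receptor, was above background on 3 adult arrays and 0 P10 arrays, with a limma adjusted p of 0.999. After quantile normalization its change was 1.08 (adjusted p = 0.00775), so that no direction can be given. Bmpr1b was above background on 2 adult arrays and 0 P10 arrays and was not tested.

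None of the tested Smads that carry the signal passed the threshold. Smad2 had levels of -0.30, -0.38 and -0.29 in adults, against -0.30, -0.33 and -0.38 at P10. The 6 values spanned 0.09, and the change was 0.03 (SE 0.13, limma adjusted p = 0.851). Smad4, the partner shared by both branches, had levels of -1.04, -1.02 and -1.19 in adults, against -1.18, -1.19 and -1.27 at P10. Its change was 0.16 (SE 0.13, limma adjusted p = 0.366). Smad1 of the BMP branch had levels of 1.1, 0.84 and 0.86 in adults, against 1.00, 1.04 and 1.00 at P10, with a change of -0.04 (SE 0.15, limma adjusted p = 0.861). Smad5 gave -0.07 (SE 0.23, limma adjusted p = 0.816), and passed without adult array 1. Smad9 was above background on 3 adult arrays and 1 P10 array and gave 0.36 (SE 0.61, limma adjusted p = 0.642), and 1.38 after quantile normalization (adjusted p = 0.085). A p-value that misses the threshold does not show equal levels, and the standard errors bound what these arrays could resolve. Smad3 was above background on 0 adult arrays and 1 P10 array and was not tested.

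The inhibitory Smads are themselves induced by the pathway and feed back on its receptors. Smad6, which acts mainly on BMP signals, had levels of -0.04, -0.21 and -0.43 in adults, against 0.36, 0.39 and 0.59 at P10. All adult arrays were lower, and the change was -0.66 (SE 0.18), 1.58-fold lower, with a limma adjusted p of 0.044. Under median scaling it was -0.36 (adjusted p = 0.319), and with no filter on dim probes the adjusted p was 0.0573. Smad7, which acts on both branches, had levels of 0.17, -0.01 and -0.12 in adults, against 0.22, 0.29 and 0.32 at P10. The adult arrays were again all lower, by 0.04 at the closest, and the change of -0.23 (SE 0.16) did not pass (limma adjusted p = 0.265).

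Of the secreted antagonists, the BMP binder Grem1 was higher in adult islets and the activin binders Fst and Fstl3 were lower. Nog was also called higher, but it entered the test through the adult stage alone. Grem1 encodes gremlin, which binds BMP2, BMP4 and BMP7 and keeps them from their receptors. It had levels of -2.32, -2.65 and -2.62 in adults, against -5.63, -5.63 and -5.84 at P10. The stages were 2.98 apart. The change was 3.26 (SE 0.18), 9.57-fold higher, with a limma adjusted p of 0.00172, the highest rise in the family. Nog encodes noggin, another BMP antagonist, and had levels of -5.48, -5.35 and -5.41 in adults, against -7.71, -6.89 and -6.79 at P10. It was above background on 3 adult arrays and 0 P10 arrays. The change was 1.61 (SE 0.22, limma adjusted p = 0.00879), a signal at least 2.71-fold higher in adults on this scale. With a normexp background correction the Nog change was -0.16 (adjusted p = 0.698), so its direction depends on how the background was treated. Bmper, a BMP modulator of endothelium, gave -0.59 (SE 0.26, limma adjusted p = 0.131), and 0.05 after quantile normalization.

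Follistatin, the product of Fst, binds and neutralises activins. Fst had levels of -4.25, -4.08 and -4.14 in adults, against -3.16, -3.06 and -3.26 at P10. The stages were 0.82 apart, and the change was -1.0 (SE 0.15), 1.99-fold lower, with a limma adjusted p of 0.00994. Fstl3, a follistatin relative with the same kind of activin binding, had levels of -5.17, -4.43 and -4.52 in adults, against -3.32, -3.43 and -3.56 at P10. It was 2.56-fold lower, with a change of -1.35 (SE 0.29, limma adjusted p = 0.0242). Fstl1, a secreted glycoprotein of mesenchymal cells that carries a follistatin-like domain, had levels of 2.36, 2.34 and 2.37 in adults, against 3.24, 3.26 and 3.26 at P10. Its spread within a stage was 0.03 or less, and the change was -0.90 (SE 0.13), 1.86-fold lower, with a limma adjusted p of 0.00919. Under median scaling it was -0.60 (adjusted p = 0.0555). Tgfbrap1, which encodes an intracellular protein that binds TGF-beta receptors, had a change of -0.49 (SE 0.13), 1.40-fold lower, with a limma adjusted p of 0.0434. Under median scaling it was -0.18 (adjusted p = 0.411), and it passed in 11 of 16 alternatives.

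How far these calls depend on the choices of processing varied by gene. The alternatives are not all separate checks. Scan as a block and the scan that held both stages gave the same changes, and the filter settings left the changes as reported. Acvr2b, Gdf15, Gdf2 and Grem1 passed, in the same direction, under all 16 alternatives run, with changes of -1.92 to -1.44, -1.92 to -1.33, -3.74 to -2.04 and 1.59 to 3.71. Under median scaling the family gave 9 higher and 10 lower, with Gdf6, Smad6, Fstl1 and Tgfbrap1 lost. Under normexp background correction 12 of the 21 calls did not pass, namely Acvr1, Bmp2, Gdf6, Gdf10, Fst, Bmp6, Smad6, Fstl3, Bmp8a, Tgfbrap1, Nog and Inhbc. Without P10 array 3, which leaves that stage 1 counted sample, 13 did not pass, namely Tgfb3, Gdf6, Gdf10, Tgfb2, Fst, Tgfbr1, Bmp3, Bmp6, Smad6, Fstl1, Fstl3, Bmp8a and Tgfbrap1. In the scan that held both stages (adult array 1 and the P10 arrays), the 21 called genes kept their direction of change. There the change was 3.41 for Grem1, 1.52 for Tgfbr1, -1.92 for Acvr2b, -2.50 for Gdf2 and -4.26 for Acvr1. The adult stage then has 1 array, and its spread is taken to equal that of the P10 arrays.

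**Figure D3:**
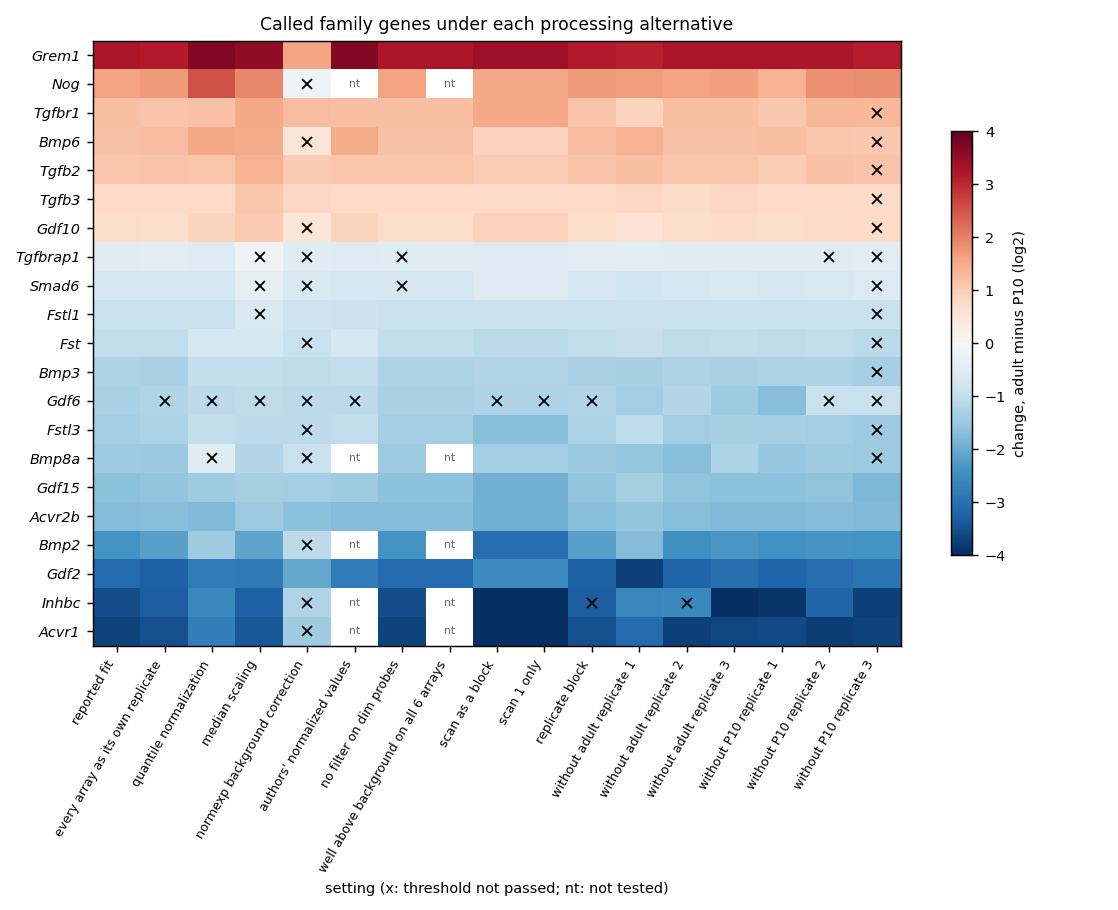
Change of the 21 called family genes (rows, adult minus P10, log2, colour) in the reported fit and 16 alternatives (columns); a cross marks an adjusted p of 0.05 or more and nt a gene not tested in that setting. The rows of Grem1, Gdf15, Acvr2b and Gdf2 hold no cross, and crosses gather in the columns for normexp background correction (12) and without P10 replicate 3 (13).

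Other genes of the pathway were taken from a list of 91, of which 65 were on the array under a matched symbol and 62 could be tested. In adults 13 were higher (21.0%) and 18 lower (29.0%), against 23.6% and 28.8% of protein-coding probes, with a median change of -0.19. Further secreted antagonists and matrix binders gave 3 higher and 6 lower of 14. Among 9 genes of latency and activation 1 was higher and 3 were lower, and among 14 intracellular regulators 2 were higher and 4 lower. Common target genes gave 5 higher and 2 lower of 15.

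The highest rises in this list were in Msx2 and Zfyve9. Msx2, a homeobox target of BMP signals, had levels of 2.94, 4.16 and 4.21 in adults, against -0.06, -0.59 and -0.78 at P10. Its change was 4.12 (SE 0.49), 17.3-fold higher, with a limma adjusted p of 0.00631. Zfyve9, which anchors Smad2 and Smad3 near the receptor, had levels of 3.38, 4.31 and 4.43 in adults, against 0.45, 0.20 and -0.11 at P10. Its change was 3.77 (SE 0.41, 13.6-fold higher, limma adjusted p = 0.00499). Both genes were lower on adult array 1 than on adult arrays 2 and 3, yet far above P10.

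Of the 15 tested common target genes, TGF-beta and BMP targets together, 5 were higher and 2 lower, with Ccn2 among the higher and Klf10 among the lower. Ccn2, which encodes connective tissue growth factor, had levels of 3.23, 2.96 and 3.02 in adults, against 0.23, 0.24 and 0.22 at P10. Its change was 2.89 (SE 0.15), 7.39-fold higher, with a limma adjusted p of 0.00156. Klf10 (change -0.97, SE 0.14, limma adjusted p = 0.00999) and Pmepa1 (change -1.14, SE 0.14, limma adjusted p = 0.00643), both TGF-beta-induced genes, were lower, and all adult arrays lay under all P10 arrays for each, though neither passed without P10 array 3. Neither Klf10 nor Pmepa1 falls under the rule for named genes, and both were chosen after their values were seen. Pmepa1 was listed among the intracellular regulators, not the common targets. Hjv, a BMP co-receptor of iron regulation, was 5.13-fold higher, with a change of 2.36 (SE 0.59, limma adjusted p = 0.0355). Its adult levels were uneven at -1.61, 0.40 and -0.49, against -3.06, -3.0 and -3.35 at P10, and it did not pass without adult array 3, without P10 array 3 or with normexp.

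Falls in the list were led by Tgif2 and Sostdc1. Tgif2, a nuclear repressor of Smad-driven transcription, had levels of -1.55, -1.62 and -1.46 in adults, against 1.71, 1.77 and 1.80 at P10. Its change was -3.32 (SE 0.13), 9.97-fold lower, with a limma adjusted p of 0.00132. Sostdc1, a secreted BMP and Wnt antagonist, had levels of -0.49, -0.49 and -0.46 in adults, against 2.84, 2.83 and 2.79 at P10. Its change was -3.29 (SE 0.13, 9.79-fold lower, limma adjusted p = 0.00132). The 6 values of each gene fell into groups of 3 that lay over 3 log2 units apart.

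Chrdl2, a chordin-like BMP antagonist, was 4.01-fold lower, with levels of -5.42, -5.28 and -5.21 in adults, against -3.36, -3.38 and -3.29 at P10 (limma adjusted p = 0.00234). Lefty2, an inhibitor of nodal, was 3.69-fold lower, with levels of -1.68, -0.97 and -1.10 in adults, against 0.54, 0.65 and 0.45 at P10 (limma adjusted p = 0.00922). Zeb2, a Smad-binding repressor, was 3.61-fold lower, with levels of -4.50, -4.66 and -4.60 in adults, against -2.72, -2.71 and -2.70 at P10 (limma adjusted p = 0.00241). All 3 were lower on every adult array than on any P10 array. The antagonists thus did not move as one group, since Grem1 and Chrdl1 (change 2.01) were higher in adults and Chrdl2 and Sostdc1 were lower.

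The Id genes, common direct targets of BMP signals, did not move together. Id2 had levels of -0.52, -0.42 and -0.47 in adults, against 0.78, 0.83 and 0.85 at P10. It was 2.47-fold lower (change -1.31, SE 0.13, limma adjusted p = 0.00427), and did not pass without P10 array 3. Id1 had levels of 2.00, 1.07 and 1.02 in adults, against 2.03, 2.15 and 2.34 at P10, with adult array 1 close to P10. Its change of -0.69 (SE 0.38) did not pass (limma adjusted p = 0.193). Id3 gave 0.36 (SE 0.13, limma adjusted p = 0.0879) and Id4 gave 0.12 (limma adjusted p = 0.602). Bambi, a decoy receptor induced by the pathway, gave 0.20 (limma adjusted p = 0.25).

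**Figure D4:**
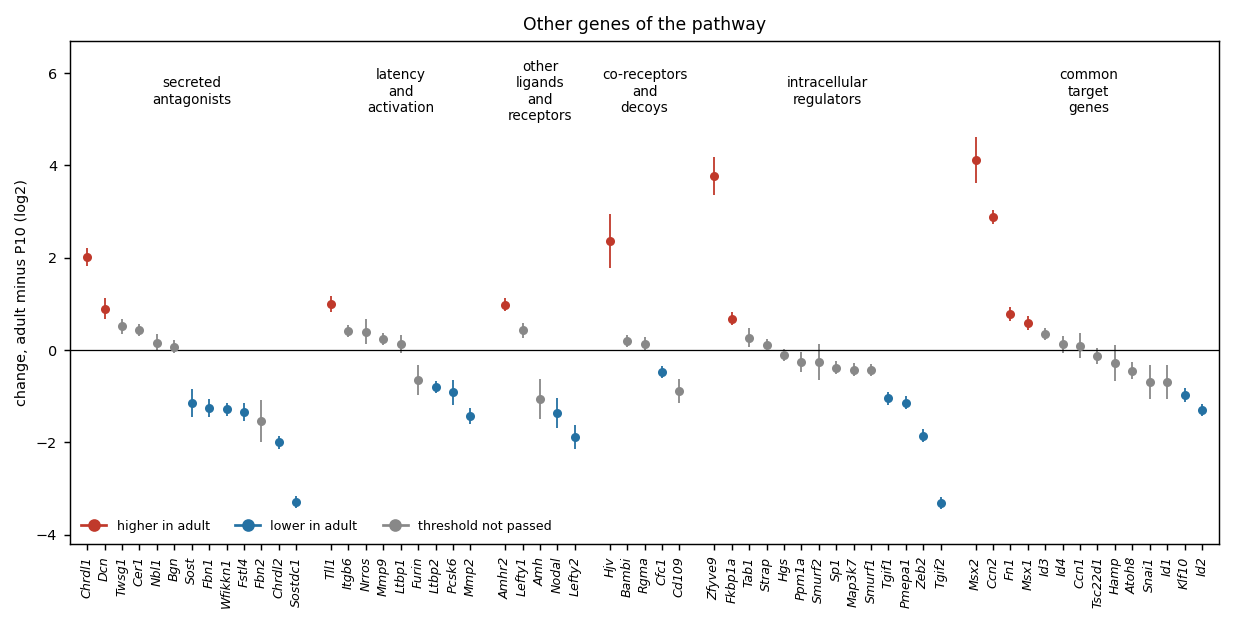
Change of 60 of the 62 tested other pathway genes (adult minus P10, log2, vertical axis) with the standard error of the limma fit, grouped by function and ordered by size within a group. Genes higher in adults (11 shown), lower in adults (18) and not past the threshold (31) occur together in most groups, with Msx2 at 4.12 and Tgif2 at -3.32 as the extremes.

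Markers of other cells also differed between the stages. Acinar markers had a summed level (log2 of summed signal) of 9.10 to 9.62 on adult arrays, against 10.67 to 10.76 on P10 arrays, with 9 of 11 tested genes lower, but 4 lower and 1 higher after quantile normalization. Enterocyte genes were at 3.04 to 3.21 in adults, against 8.18 to 8.26 at P10, with 11 of 11 lower, and Apoa4 was above background on 0 adult arrays. Leukocyte markers were at 5.43 to 5.61 in adults, against 3.47 to 3.52 at P10, with 13 of 14 higher, and Cd4, Cd79b and Itgam were above background on 0 P10 arrays. Duct markers were at 5.23 to 5.48 in adults, against 6.26 to 6.33 at P10, with 1 of 5 higher and 3 lower. A summed level covers only markers with a value on every array, 13 for leukocytes and 9 for mesenchyme. The sums thus leave out Lyz2, Vim, Pdgfra and Pdgfrb, though Lyz2 and Vim are among the tested genes.

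Mesenchymal markers, of cells that commonly express Fstl1, Grem1 and the TGF-betas, were at 6.06 to 6.16 in adults, against 6.80 to 6.89 at P10. Of 10 tested genes 3 were higher (Dcn, Rgs5 and Tagln) and 4 lower (Col1a2, Col3a1, Col5a1 and Lum). A summed level follows its brightest probes, here mostly Col3a1, with levels of 4.83, 4.86 and 4.81 in adults, against 6.25, 6.32 and 6.23 at P10. The sum is therefore no measure of the amount of mesenchyme. Endothelial markers, of cells that carry Acvrl1, were at 5.47 to 5.74 in adults, against 5.19 to 5.23 at P10, with 1 of 8 higher and 1 lower. Schwann cell markers were at 2.29 to 2.40 in adults, against 1.08 to 1.20 at P10, with 3 of 6 higher and 1 lower. Endocrine markers were at 9.30 to 9.66 in adults, against 9.30 to 9.44 at P10, with 5 of 10 higher and 2 lower. After quantile normalization 7 were higher and 0 lower, and the changes of the 2 lower genes, Gcg and Ins1, were 0.32 and 0.18. Cell cycle genes were at 3.38 to 3.52 in adults, against 4.13 to 4.22 at P10, with 4 of 5 lower. The part of these differences in the changes of Grem1, Gdf2 and the other family genes was not tested.

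**Figure D5:**
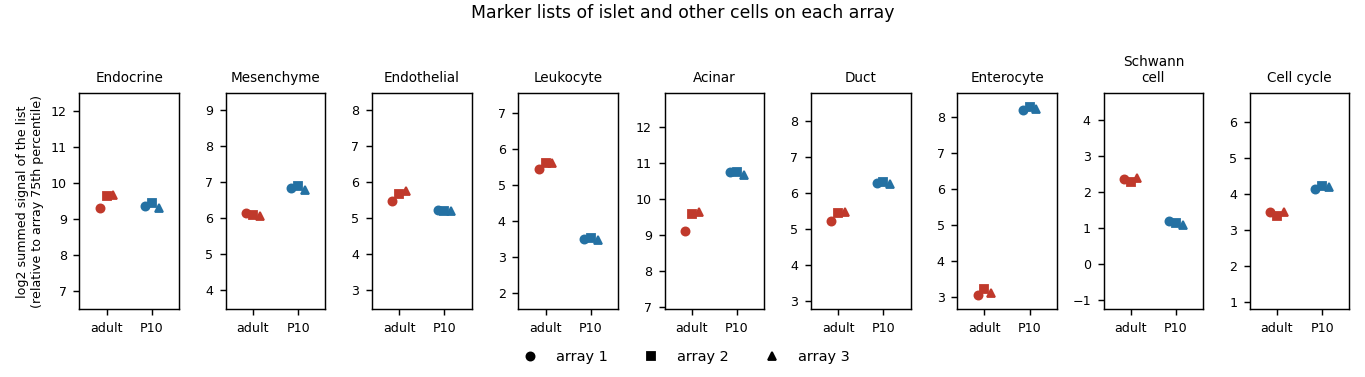
Log2 of the summed signal of each marker list on each array (relative to the array's 75th percentile), adult arrays left and P10 arrays right. Only markers with a value on every array are summed, so Lyz2, Vim, Pdgfra and Pdgfrb are left out. Each panel has its own vertical range. Enterocyte, acinar, duct, mesenchymal and cell cycle sums are lower on all adult arrays, leukocyte, endothelial and Schwann cell sums are higher, and endocrine sums meet between 9.30 and 9.44. A sum follows its brightest probes, such as Col3a1 in the mesenchymal panel.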

How the data were processed

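Each array carried Cy3-labelled RNA of 1 islet sample. Per the submitters' processing notes the scanner output came from Agilent Feature Extraction, version 11.0.1.1. The deposited spot intensity had its background subtracted and was not scaled between arrays, per the file headers. The authors also deposited normalized log2 values, whose method is not given in the sources used here. They served as an alternative.

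Outlier spots were dropped (0 among the family genes), and log2 processed intensity values of a probe's spots were averaged. Each array's 75th percentile was subtracted. A probe entered the test if, in either stage, each of the 3 arrays was well above background. Symbols came from accessions matched to a RefSeq table (GRCr8), which named 14294 probes. Gene coordinates are left out because the array was annotated on another build.

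Arrays of a stage were compared through 184 genes with 2 probes. A difference between samples recurs at both probes. The correlation (rho) between adult arrays 2 and 3 was 0.14, and P10 arrays 1 and 2 likewise gave 0.14. It was 0.69 and 0.71 for the other adult pairs and 0.36 and 0.36 for the other P10 pairs. Pairs under 0.2 were counted as 1 sample. Over 2947 probes with 3 spots, the variance between P10 arrays was 0.758 to 0.969 of that expected from spots in all 3 pairs, so the choice among P10 pairs rests on the correlation alone. For adult arrays the ratio was 1.12 for arrays 2 and 3, and 17.3 and 14.4 for the other pairs.

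Adult and P10 samples were compared with limma (version 3.58.1, R version 4.3.3; functions lmFit and eBayes). The p-values of the whole table were adjusted together by the Benjamini-Hochberg method, with calls at 0.05. The fit was tested on simulated data. The SD and error of a level rest on n = 2 per stage. Where a probe was not above background on any array of 1 stage, the fold is a bound (at least). It uses, on each array of that stage, the higher of the gene's level and the lowest well-measured signal. The bound holds for the reported scaling and background only. Values are given for genes past the threshold with at least a 2-fold change and for the main genes of each branch. Members, roles, gene lists and tests were chosen with earlier results of these data known. Alternatives covered replicates, scaling, background, filter, scan and the authors' values. Normexp (offset 50) used median spot signals. Promoters came from a RefSeq table of the same assembly. Values of 2 other pathway genes are not reported here, though the counts include them.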

Additional observations from a re-analysis of the deposited data

How the results depend on the processing

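The family count was 7 higher and 14 lower in adults. Under normexp background correction it was 4 and 5, while all tested protein-coding probes gave 1707 higher and 1959 lower, against 2957 and 3608 as reported, and other pathway genes gave 7 higher, against 13. With scan as a block, and with the scan that held both stages alone, protein-coding probes lower in adults numbered 5588 and 5589, and pathway genes higher numbered 22 in both. These counts for the scan settings are of opposite directions, so they are not set against each other. With every array as its own replicate 28 pathway genes were lower, against 18. In that setting 70.6% of protein-coding probes passed in either direction, against 52.3% as reported, so the rise was not particular to pathway genes. Leaving out 1 array in turn gave 2 to 9 family genes higher and 6 to 19 lower, 1189 to 4281 protein-coding probes higher and 1528 to 4795 lower, and 6 to 18 pathway genes higher and 5 to 27 lower. Without P10 array 3 the family count was 2 and 6, and without adult array 1 it was 9 and 19. Each leaves its stage 1 counted sample, assumed to vary like the other stage. The cause was not tested. Median scaling gave 9 and 10 family genes, for which no share of protein-coding probes is given here.

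Among the 21 called family genes the 1 reversal was Nog, at -0.16 under normexp. With quantile normalization the family gave 10 higher and 12 lower, while 29.9% of protein-coding probes were higher and 27.2% lower, against 23.6% and 28.8% as reported. With the authors' values 15 of the 16 calls they hold passed, all except Gdf6. With the replicate number of the labels as a replicate block the family gave 8 higher and 13 lower, and 19 of 21 calls passed, all except Gdf6 and Inhbc. Deviations of same-numbered arrays correlated at -0.21, 0.08 and -0.24. The P10 arrays differed by no more than spot noise, so these values cannot show whether the numbers pair samples. Each of the 48 genes had 1 probe, so averaging probes changed no family gene. Signal over background limits Nog, Acvr1, Bmp2, Bmp8a and Inhbc, which were dim in 1 stage, and the 8 genes not tested. With 2 counted samples per stage, small differences could not be resolved.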
